A study of Mus musculus with 9 samples.

Results

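The genes described here encode the protein components of the cytosolic ribosome, and their messages were sequenced from hearts of CD-1 pups. Members were chosen by symbol: every gene named as a numbered Rpl or Rps gene, together with Rplp0, Rplp1, Rplp2 and Rpsa, was taken where the deposited expression matrix held a row for it. Of 88 matching symbols, 84 were in the matrix of 14479 genes. By symbol they comprise 46 genes of the large subunit, 31 genes of the small subunit, 4 diverged paralogs (Rpl22l1, Rpl3l, Rps27l and Rpl7l1) and 3 retrocopies that the GENCODE M21 annotation lists as pseudogenes (Rps3a2, Rps3a3 and Rps4y2). The other 4 matching symbols (Rpl39l, Rpl10l, Rps12l1 and Rps12l2) were not tested by the authors' caller and reached at most 0.306 FPKM in the authors' deposited tables.

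The 3 groups of pups had 3 libraries each and no genetic alteration named in the labels: apical resection with left vagotomy, apical resection alone, and sham surgery. In apical resection the tip of the heart is cut off, and left vagotomy severs the vagus nerve of that side, which carries parasympathetic fibres to the heart. Every pup was operated on at postnatal day 1 and its heart collected at postnatal day 2, so the resection is shared by the vagotomy group and the group it is set against, and no group had vagotomy without resection. RNA came from the remaining apical part of the ventricle and was not sorted by cell type; neither the number of pups per library nor their litters are given, so p-values measure only the spread between these libraries.

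Ribosomal proteins assemble with ribosomal RNA into a small subunit that reads the messenger RNA and a large subunit that joins amino acids. Most are made in matched amounts from single functional genes, and their messenger RNAs begin with a run of pyrimidines, the terminal oligopyrimidine motif, through which the mTOR pathway controls their translation. In the heart, growth of cardiomyocytes is accompanied by increased ribosome production. Many ribosomal protein genes also carry small nucleolar RNAs in their introns and have left large numbers of processed copies in the mouse genome.

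Values are FPKM, fragments per length of transcript and per number of mapped fragments, after removal of the pseudocount of 1 that the authors had added. Read counts were not used, so the depth behind each value is unknown. The tissue label fitted its markers: all 10 cardiomyocyte genes tested were present in the matrix, with Myl2, the ventricular light chain, between 2802 and 7766 FPKM in the 9 libraries, whereas only 2 of 6 skeletal muscle markers, Mylpf and Tnnt3, were in the matrix and summed to at most 3.90 FPKM, and none of the 6 lymphocyte markers was in the matrix. The libraries with vagotomy stood apart in the files themselves. Myh6 and Actc1, abundant cardiomyocyte genes, were listed at 0 in all 3 of them and above 1326 FPKM in the other 6 libraries, and the authors' deposited table marks both in that group as having too many fragments to quantify. The mark was not particular to vagotomy: the mitochondrial gene mt-Co1 carried it for sham surgery and was listed at 0 in all 3 sham libraries, against 4063 to 10042 FPKM after resection with vagotomy and 7632 to 15284 FPKM after resection. Whether the vagotomy libraries were quantified in a separate run or with other settings is not given in the sources used here, so such a difference and the surgery cannot be told apart in any comparison with vagotomy. No member carried that mark, and all 84 had status OK in both of the authors' tables.

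Ribosomal protein genes were among the most abundant messages in every library. The median member averaged 112 FPKM over the 9 libraries, against 9.81 FPKM for all 13249 genes tested, and 48 members (57.1%) averaged over 100 FPKM, against 5.28% of all genes tested. Averages ran from 2.72 FPKM for Rps3a3 to 656 FPKM for Rpl41, which encodes the shortest ribosomal protein. Small-subunit genes had a median of 122 FPKM and large-subunit genes a median of 114 FPKM.

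The 5 members with the highest average were Rpl41, Rps27a, Rps21, Rplp1 and Rplp0. Rps27a, made as a fusion with ubiquitin, had 350, 542 and 491 FPKM after resection with vagotomy, 846, 649 and 346 FPKM after resection, and 331, 446 and 668 FPKM after sham surgery. Its groups overlapped. Rps21 had 294, 293 and 133 FPKM after resection with vagotomy, 1024, 469 and 410 FPKM after resection, and 618, 393 and 562 FPKM after sham surgery. All 3 of its vagotomy libraries lay below the other 6. The acidic stalk protein gene Rplp1 had 371, 323 and 424 FPKM after resection with vagotomy, 993, 364 and 286 FPKM after resection, and 470, 383 and 469 FPKM after sham surgery. Rplp0, which anchors the stalk, had 546, 634 and 555 FPKM after resection with vagotomy, 628, 252 and 282 FPKM after resection, and 421, 279 and 334 FPKM after sham surgery. For both stalk genes the first resection library was the highest of the 9 or close to it.

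Not every member was abundant. Only 6 averaged 10 FPKM or less: Rps3a3, Rpl29, Rpl24, Rpl3l, Rpl7l1 and Rpl21. The row labelled Rpl24 is doubtful. GENCODE M21 gives its identifier a coding sequence of 3150 bases, the longest of the members, and its deposited locus holds 4 genes. Its level is therefore not read as that of Rpl24, although the symbol places it among the large-subunit genes. Rpl21, a large-subunit gene with 77 near-identical genes elsewhere in the genome, averaged 8.20 FPKM, and Rpl29 averaged 2.85 FPKM. Near-identical here means at least 90% identity over at least 80% of the coding sequence. Such copies were found for 78 of the 84 members, with a median of 8, and 46 members shared their deposited locus with other genes, so the authors' counting could have split or merged reads for many of them. Across the 81 protein-coding members the level had a Spearman correlation of -0.27 with the number of near-identical genes and of -0.14 with transcript length, given as a description.

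The total of all 84 members differed more between libraries of 1 group than between groups. It was 16039, 13644 and 12903 FPKM after resection with vagotomy, 20448, 11302 and 8906 FPKM after resection, and 14200, 10347 and 13560 FPKM after sham surgery. As a share of all protein-coding FPKM this was 4.30%, 3.37% and 2.59% after resection with vagotomy, 5.27%, 3.25% and 2.32% after resection, and 3.76%, 2.72% and 3.57% after sham surgery. Members moved together within a group: the first resection library was the highest of its 3 for 71 members and resection library 3 the lowest for 60, vagotomy library 1 was the highest for 55 and vagotomy library 3 the lowest for 53, and the second sham library was the lowest for 62. Haemoglobin genes summed to 345, 458 and 617 FPKM after resection with vagotomy, 4296, 778 and 1045 FPKM after resection, and 1329, 426 and 1031 FPKM after sham surgery, so the highest library of the resection group was the same for both; their part in the members' level was not tested. In bulk tissue, fewer cells of a type and less RNA per cell cannot be told apart.

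**Figure D1:**
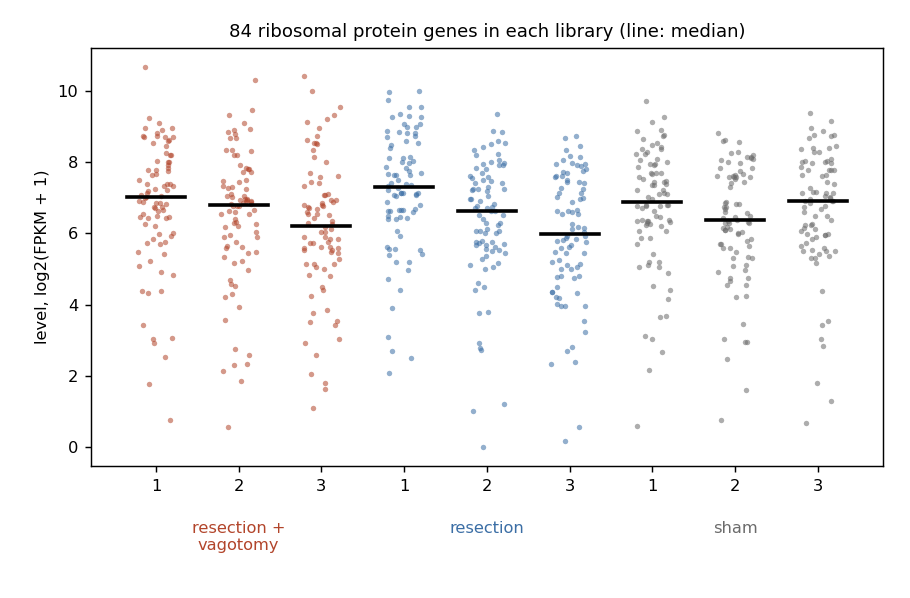
Level of each of the 84 ribosomal protein genes, as log2(FPKM + 1), in each of the 9 libraries, with points for genes and a line for the median. The median runs from 5.98 in resection library 3 to 7.30 in resection library 1, a wider range than that of the vagotomy libraries (6.21 to 7.01) or the sham libraries (6.37 to 6.91).

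The start sites of members are shown because their messenger RNAs are known for the pyrimidine run. RefSeq start sites (GRCm38.p6) were matched for 61 members, and a run of at least 8 C or T bases on the transcribed strand, within 15 bases on each side of the first listed start, was found for 25 of them (41.0%). Of all 27025 genes in that table, 3205 (11.9%) had such a run in the same window. The windows of 30 bases below, each read 5′ to 3′ on the strand of its gene with the run in capitals, belong to members that differed after vagotomy, to Rpl22 as the parent of Rpl22l1, and to Rps6.
Rpl22l1: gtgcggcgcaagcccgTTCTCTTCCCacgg
Rpl38: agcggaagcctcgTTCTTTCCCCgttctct
Rpl39: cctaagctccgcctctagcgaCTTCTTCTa
Rplp2: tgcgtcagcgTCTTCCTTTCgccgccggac
Rps6: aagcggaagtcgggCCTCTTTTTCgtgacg
Rpl12: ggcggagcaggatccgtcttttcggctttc
Rpl22: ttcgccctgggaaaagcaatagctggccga
Rpl23: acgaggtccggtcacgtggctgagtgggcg
Rps3a1: ttaaagccggaagggcgaaagagcaagggt
Rpl41: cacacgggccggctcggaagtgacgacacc
They lie at chr3:28805493-28805522 (+) for Rpl22l1, chr11:114668565-114668594 (+) for Rpl38, chrX:37085208-37085237 (-) for Rpl39, chr7:141447636-141447665 (+) for Rplp2 and chr4:86857353-86857382 (-) for Rps6. Those without a run of 8 lie at chr2:32961697-32961726 (+) for Rpl12, chr4:152325711-152325740 (+) for Rpl22, chr11:97782425-97782454 (-) for Rpl23, chr3:86142654-86142683 (-) for Rps3a1 and chr10:128549154-128549183 (-) for Rpl41. The longest run was 10 bases in Rpl22l1, Rpl38, Rplp2 and Rps6, 8 in Rpl39, 7 in Rpl12 and 2 to 4 in the remaining 4. The absence of a run says only that these letters are not in this window around the listed start.

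Resection alone was compared with sham surgery first. No ribosomal protein gene was called higher or lower by limma, which with 3 libraries a group does not show that none changed. Levels were compared as log2(FPKM + 1) with limma, with Benjamini-Hochberg adjustment over all 13249 genes and a threshold of 0.05: 0 of 84 members were called, against 0.294% of all genes tested (39 genes), and 0 members reached an unadjusted p under 0.05, against 780 genes in all. In 0 members did the 3 resection libraries all lie on 1 side of the 3 sham libraries, against 10.8% of all genes tested. The median log2 change of the members was -0.02, that of all genes tested was -0.01, and no member changed by more than 1 on the log2 scale. The authors' deposited Cuffdiff table called 1 member at a q-value under 0.05, against 6.12% of all genes it tested.

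That member was Rps2, which encodes a small-subunit protein at the messenger RNA entry channel. It had 740, 150 and 321 FPKM after resection, against 245, 280 and 141 FPKM after sham surgery. The groups overlapped, and limma gave a log2 change of 0.62 ± 0.61 (SE, n = 3 each; adjusted p = 1.0), whereas the authors' deposited table gave a q-value of 0.00297. Rps2 has 50 near-identical genes elsewhere in the genome.

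The members with the smallest unadjusted p after resection also overlapped between groups. Rps28, a small-subunit gene, had 97.5, 20.2 and 14.6 FPKM after resection, against 80.8, 46.9 and 61.7 FPKM after sham surgery, the lowest log2 change of the set at -0.97 ± 0.62 (SE). Rpl36a had 508, 229 and 420 FPKM after resection, against 254, 254 and 270 FPKM after sham surgery, a log2 change of 0.49 ± 0.35 (SE). Rps24 had 95.9, 144 and 151 FPKM after resection, against 206, 114 and 220 FPKM after sham surgery, a log2 change of -0.43 ± 0.33 (SE). All 3 had a limma adjusted p of 1.0. Rps26 and Rps29, small-subunit genes, had log2 changes of -0.64 ± 0.59 and -0.60 ± 0.72 (SE), with libraries as far apart within a group as 739 and 128 FPKM for Rps29 after resection. The largest positive change belonged to the retrocopy Rps3a3, which had 20.2, 0 and 0.132 FPKM after resection, against 0.515, 0.705 and 0.593 FPKM after sham surgery; it rests on 1 library, and it was the only member listed at 0 anywhere.

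Leaving out the first resection library moved the members' median change to -0.37, and leaving out resection library 3 moved it to 0.24, with 0 members called in either case.

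Resection with vagotomy was then compared with resection alone, which asks what loss of the left vagus changed in the injured heart. The same 3 resection libraries serve in this comparison and in the one with sham surgery. Ribosomal protein genes did not move in 1 direction: 4 rose and 4 fell. Rpl41, Rplp2, Rpl23 and Rps3a1 were higher in all 3 vagotomy libraries, and Rpl22l1, Rpl38, Rpl39 and Rps14 were lower. These 8 of 84 members (9.52%) passed limma's adjusted threshold, against 3.52% of all genes tested (466 genes), of which 1.97% were higher and 1.55% lower. The median log2 change was 0.06, beside 0.02 for all genes tested, and 43 members had a positive and 41 a negative change. With FPKM scaled to a common protein-coding total both medians shifted down, the members' to -0.11 and that of all genes to -0.12, with 8 members called.

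The largest fall was that of Rpl22l1 (chr3:28805436-28807424, GRCm38), the paralog of Rpl22; in mouse cells Rpl22 protein is known to repress Rpl22l1 by binding its transcript. Rpl22l1 had 33.2, 36.7 and 9.82 FPKM after resection with vagotomy, against 197, 290 and 68.7 FPKM after resection. The highest vagotomy library lay below the lowest resection library, and the log2 change was -2.72 ± 0.60 (SE, n = 3 each; limma adjusted p = 0.040). Sham libraries had 110, 174 and 251 FPKM, within the range of the resection libraries. Its parent Rpl22 (chr4:152325742-152334071) had 416, 456 and 257 FPKM after resection with vagotomy, against 278, 195 and 244 FPKM after resection. Those groups overlapped, with a log2 change of 0.63 ± 0.32 (SE; limma adjusted p = 0.26).

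Rpl38 (chr11:114668524-114672331), a large-subunit gene known in mouse embryos for its part in translating Hox messages, had 99.6, 92.7 and 52.9 FPKM after resection with vagotomy, against 387, 345 and 238 FPKM after resection. It fell by 1.99 ± 0.36 on the log2 scale (SE; limma adjusted p = 0.024), the smallest p among the members. Rpl39 (chrX:37082520-37085402), whose short protein lines the exit tunnel, had 107, 108 and 48.5 FPKM after resection with vagotomy, against 422, 370 and 179 FPKM after resection. It fell by 1.87 ± 0.43 (SE; limma adjusted p = 0.045). Rps14 (chr18:60747098-60778546), a small-subunit gene whose loss is known from a human bone marrow disorder, had 107, 125 and 121 FPKM after resection with vagotomy, against 613, 454 and 250 FPKM after resection. It fell by 1.80 ± 0.38 (SE; limma adjusted p = 0.036), and its vagotomy libraries were the closest to each other of the 4.

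Among the members that rose, Rpl41 (chr10:128548114-128549305) had 1626, 1254 and 1360 FPKM after resection with vagotomy, against 505, 124 and 173 FPKM after resection. It rose by 2.66 ± 0.50 on the log2 scale (SE, n = 3 each; limma adjusted p = 0.028), and no near-identical gene was found for it. Rplp2 (chr7:141447370-141451585), the partner of Rplp1 in the stalk that recruits elongation factors, had 497, 708 and 747 FPKM after resection with vagotomy, against 352, 105 and 189 FPKM after resection. It rose by 1.74 ± 0.41 (SE; limma adjusted p = 0.047), while Rplp1, its partner, had a log2 change of -0.34 ± 0.43 (SE; limma adjusted p = 0.67). Rpl23 (chr11:97777527-97782437), a large-subunit protein known to bind Mdm2, had 479, 437 and 325 FPKM after resection with vagotomy, against 201, 97.1 and 126 FPKM after resection. It rose by 1.59 ± 0.35 (SE; limma adjusted p = 0.039). Rps3a1 (chr3:86137940-86142702), the functional parent of the retrocopies Rps3a2 and Rps3a3, had 414, 485 and 638 FPKM after resection with vagotomy, against 178, 206 and 195 FPKM after resection. It rose by 1.38 ± 0.29 (SE; limma adjusted p = 0.035).

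**Figure D2:**
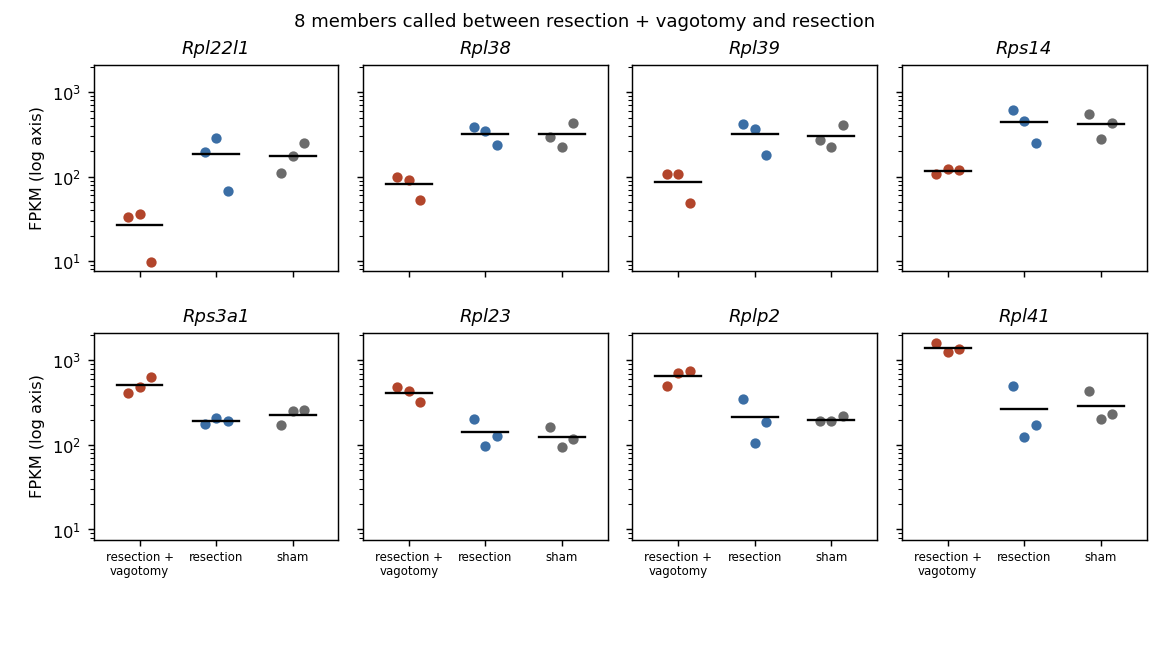
FPKM on a log axis for the 8 members called between resection with vagotomy and resection, 1 point per library in replicate order and a line for the mean of each group. In every panel the 3 vagotomy libraries lie on 1 side of the 3 resection libraries and of the 3 sham libraries, and resection and sham libraries overlap.

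These calls lay near the threshold. Left-out libraries moved the count of 8 to 1 without the first vagotomy library, to 0 without vagotomy library 2 or 3, to 0 without resection library 2, to 4 without resection library 3, and to 5, 1 and 1 without sham libraries 1, 2 and 3; it was 8 without the first resection library, with 7 higher and 1 lower. The share of all genes called in those fits was 0.317% to 4.46%. Fitting only the 6 vagotomy and resection libraries ended all 8 calls: limma called 0 members, against 0.219% of all genes tested, with a smallest adjusted p of 0.099, and 23 members (27.4%) had an unadjusted p under 0.05, against 19.8% of all genes tested. With the replicate number as a block it was 14 (16.7%), against 9.64% of all genes tested in that fit.

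Counted by libraries that did not overlap, the members were close to other genes. The 3 vagotomy libraries lay on 1 side of the 3 resection libraries for 20 members (23.8%), 8 higher and 12 lower, against 26.2% of all genes tested, 14% higher and 12.2% lower. Besides the 8 called, they included Rpl12, Rpl10, Rps21, Rpl19, Rpl37a, Rpl5 and Rps4x on the lower side and Rpl13a, Rpl4, Rps9 and Rpl27a on the higher side. Rpl12, at the base of the stalk, had 115, 123 and 81.0 FPKM after resection with vagotomy, against 447, 246 and 211 FPKM after resection, a log2 change of -1.44 ± 0.36 (SE; limma adjusted p = 0.055). Rpl27a had 227, 136 and 109 FPKM after resection with vagotomy, against 99.6, 37.6 and 31.0 FPKM after resection, a log2 change of 1.60 (limma adjusted p = 0.091). Rps28, with a log2 change of 1.79 ± 0.62 (SE; limma adjusted p = 0.12), had a larger change than Rplp2 but overlapping libraries. The authors' deposited Cuffdiff table called 36 members (42.9%), 14 higher and 22 lower, against 17.1% of all genes it tested, 8.52% higher and 8.56% lower, and these included the 8 called by limma.

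**Figure D3:**
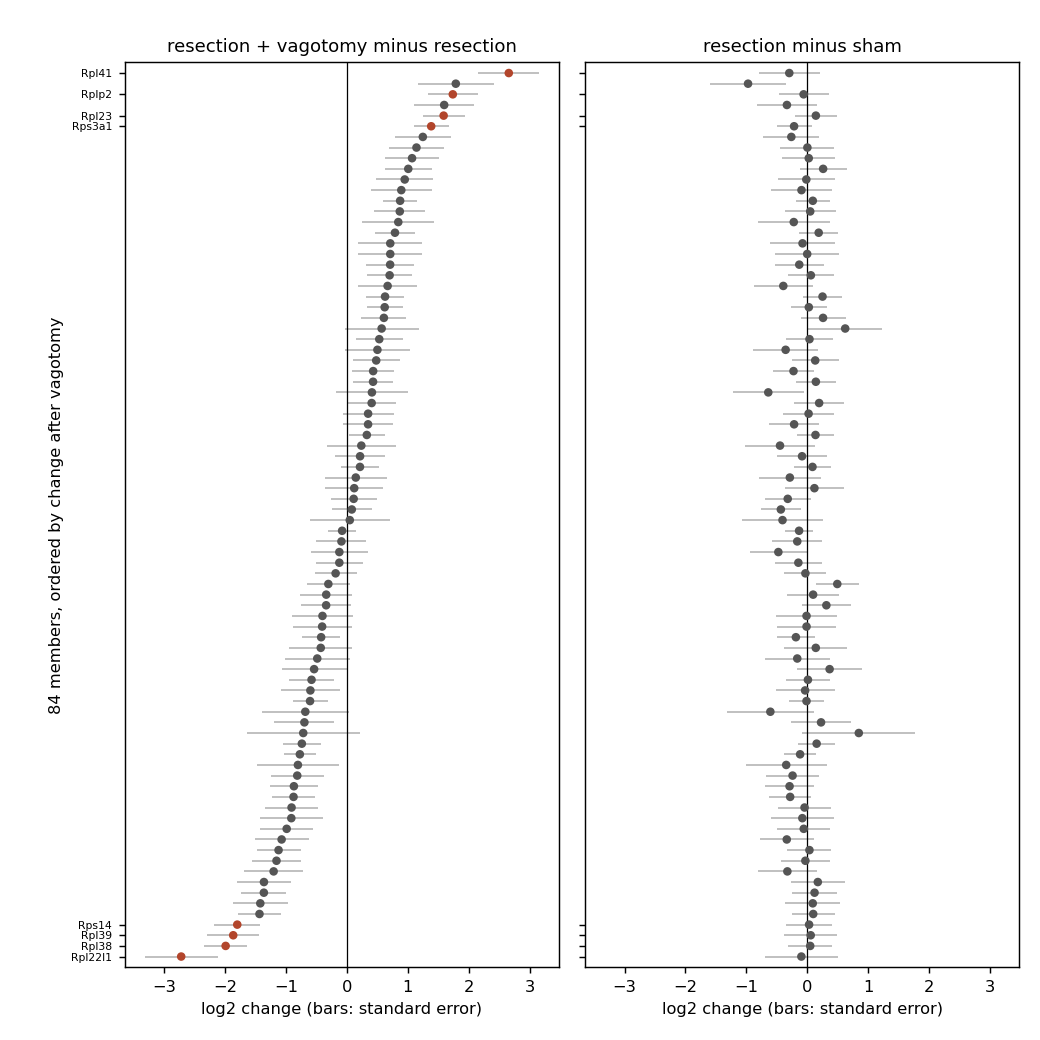
Log2 change of each of the 84 members, with bars for the standard error, in resection with vagotomy minus resection (left) and in resection minus sham (right), in the order of the left panel and with the 8 called members in red and labelled. On the left the changes run from -2.72 to 2.66, and on the right from -0.97 to 0.85.

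The spread of the changes among members was larger after vagotomy than their median. The SD of the members' log2 changes was 0.97 for vagotomy over resection and 0.27 for resection over sham, and 22 members (26.2%) passed 1 on the log2 scale after vagotomy. The share over all genes tested was 13.8%, but among 876 other protein-coding genes with transcripts under 1000 bases it was 27.7%, with an SD of 0.98. By these 2 measures the members' spread was close to that of short genes outside the set, of which 61 (6.96%) were called. The interquartile range was 1.36 for members and 1.15 for the short genes, whose changes ran further, from -7.84 to 5.25. Among 2215 other protein-coding genes averaging 32 FPKM or more, 18.6% passed 1, with an interquartile range of 0.99.

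**Figure D4:**
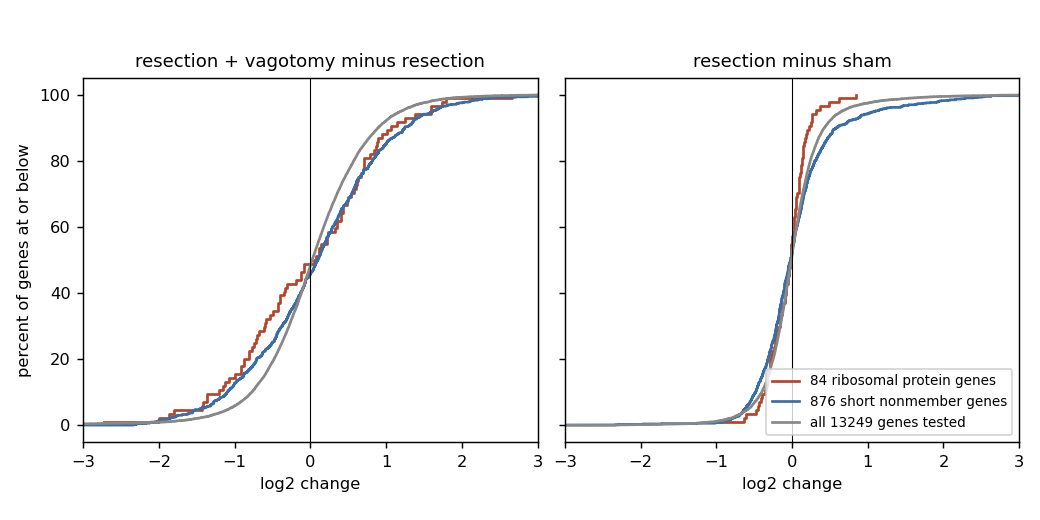
Cumulative percent of genes at or below each log2 change, for the 84 members, for 876 short nonmember genes and for all 13249 genes tested, in resection with vagotomy minus resection (left) and in resection minus sham (right). On the left the members and the short genes have SDs of 0.97 and 0.98 and interquartile ranges of 1.36 and 1.15. On the right the members' curve is the steepest, with an SD of 0.27 against 0.51 for all genes tested.

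The relative levels of members within a library separated the vagotomy libraries from the rest. Across the 84 members, log2 levels had a Pearson correlation of 0.895 to 0.980 in the 15 pairs among resection and sham libraries, of 0.905 to 0.963 in the 3 pairs among vagotomy libraries, and of 0.688 to 0.873 in the 18 pairs that joined a vagotomy library with another. All genes tested showed the same order, with 0.868 to 0.951, 0.883 to 0.937 and 0.746 to 0.895 for those pairs. When each library was centred on the median of its members, 38 members (45.2%), 17 higher and 21 lower, had vagotomy libraries on 1 side of the resection libraries, against 26.3% of all genes tested when centred on their own median, 32.4% of the short genes and 33.0% of 2215 other protein-coding genes averaging 32 FPKM or more. In resection against sham the same count was 1 of 84 (1.19%), against 10.9% of all genes tested. Centring moved the members from 23.8% to 45.2% in the first comparison, and all genes tested only from 26.2% to 26.3%. Members moved together from library to library, so centring on their own median takes out more for them than for a mixed set. The centred shares are therefore not like measures of members and other genes. In resection against sham the members' share was the lower one with or without centring. Whether these shares differ was not tested.

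Large- and small-subunit genes were compared within libraries. The summed FPKM of the small subunit over that of the large subunit was 0.707, 0.678 and 0.722 after resection with vagotomy, 0.835, 0.845 and 0.814 after resection, and 0.842, 0.811 and 0.817 after sham surgery. This difference rested on 1 gene. Without Rpl41 the ratio was 0.856, 0.803 and 0.884 after resection with vagotomy, 0.875, 0.863 and 0.845 after resection, and 0.893, 0.842 and 0.844 after sham surgery, and the groups overlapped. Median log2 changes after vagotomy were 0.08 for the 31 small-subunit genes, of which 1 rose and 1 fell, and 0.11 for the 46 large-subunit genes, of which 3 rose and 2 fell.

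The 4 paralogs were set against their parents. Within a library the ratio of Rpl22l1 to Rpl22 in FPKM was 0.0798, 0.0805 and 0.0382 after resection with vagotomy, 0.708, 1.49 and 0.282 after resection, and 0.675, 0.915 and 0.996 after sham surgery. Every vagotomy library lay below all 6 others. Against the resection or the sham libraries alone, 3 against 3, the smallest two-sided exact permutation p is 0.1. Rpl3l, which replaces Rpl3 in the ribosomes of heart and skeletal muscle, was low at 7.37, 3.39 and 7.18 FPKM after resection with vagotomy, 4.65, 1.02 and 5.56 FPKM after resection, and 7.66, 4.57 and 2.51 FPKM after sham surgery. Rpl3 had 72.5, 71.1 and 105 FPKM after resection with vagotomy, 167, 119 and 97.2 FPKM after resection, and 140, 112 and 126 FPKM after sham surgery. The ratio of Rpl3l to Rpl3 was 0.102, 0.0477 and 0.0684 after resection with vagotomy, 0.0279, 0.00856 and 0.0572 after resection, and 0.0548, 0.0407 and 0.0199 after sham surgery, with overlap between all groups. Rps27l, a p53-induced paralog, averaged 18.5 ± 1.36 FPKM after resection with vagotomy, 23.3 ± 12.9 FPKM after resection and 30.4 ± 13.4 FPKM after sham surgery (SD, n = 3 each), while its parent Rps27 averaged 28.2 ± 21.3, 34.5 ± 14.3 and 31.2 ± 14.4 FPKM. The retrocopies were low. Rps4y2 had 9.74, 10.9 and 10.7 FPKM after resection with vagotomy, 41.9, 5.88 and 14.5 FPKM after resection, and 16.997, 9.90 and 9.82 FPKM after sham surgery. Rps3a2 had 20.0, 22.1 and 45.2 FPKM after resection with vagotomy, 25.5, 12.7 and 21.6 FPKM after resection, and 11.8, 22.5 and 19.8 FPKM after sham surgery, and both overlapped. Rpl7l1, a nucleolar paralog of Rpl7, was among the steadiest members, between 5.01 and 7.59 FPKM in the 9 libraries, against 71.2 to 149 FPKM for Rpl7.

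**Figure D5:**
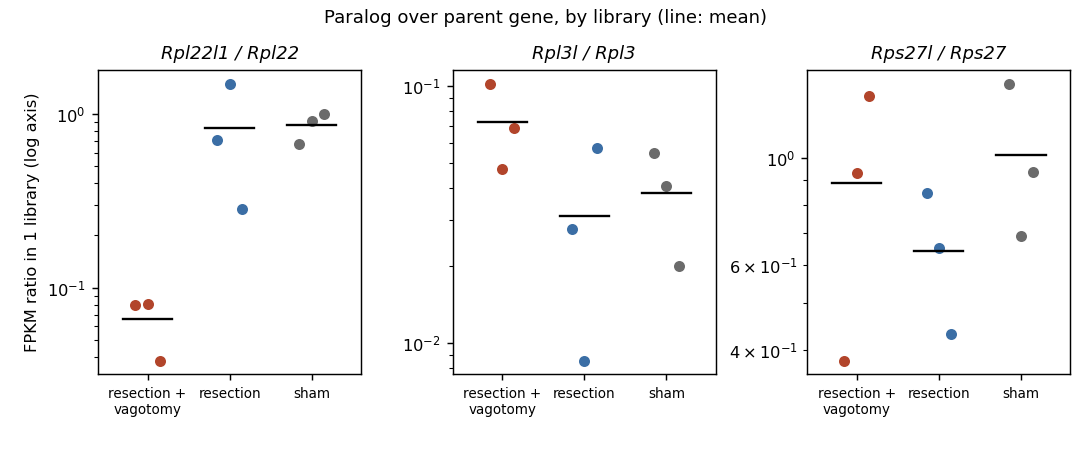
Ratio of paralog to parent gene in FPKM on a log axis in each library, 1 point per library in replicate order and a line for the mean of each group. For Rpl22l1 over Rpl22 the vagotomy libraries reach at most 0.0805 and the others at least 0.282; the ratios of Rpl3l to Rpl3 and of Rps27l to Rps27 overlap between groups.

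Of 5 further members with a known role in signalling or disease (Rpl5, Rpl11, Rps6, Rps19 and Rpsa), none passed the test after vagotomy over resection. Rpl5 and Rpl11, which bind Mdm2 when ribosome assembly fails, differed in sign. Rpl5 had 127, 119 and 103 FPKM after resection with vagotomy, against 208, 222 and 171 FPKM after resection, a log2 change of -0.77 ± 0.26 (SE; limma adjusted p = 0.11). Its libraries did not overlap. Rpl11 had 87.7, 73.5 and 89.8 FPKM after resection with vagotomy, against 83.6, 42.6 and 43.9 FPKM after resection, a log2 change of 0.62 ± 0.30 (SE; limma adjusted p = 0.23). Rps6, the ribosomal protein phosphorylated downstream of mTOR, had 103, 121 and 116 FPKM after resection with vagotomy, against 139, 68.8 and 76.0 FPKM after resection. Those libraries overlapped, at a log2 change of 0.33 ± 0.30 (SE; limma adjusted p = 0.54). Rps19, mutated in an inherited human anaemia, had 260, 212 and 56.7 FPKM after resection with vagotomy, against 163, 54.7 and 59.6 FPKM after resection, while its libraries overlapped. Rpsa, also known as the laminin receptor, had 27.5, 30.7 and 64.5 FPKM after resection with vagotomy, against 46.5, 32.5 and 17.1 FPKM after resection, again with overlap.

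The change after vagotomy was set beside properties of the 81 protein-coding members, as a description. Its Spearman correlation was 0.11 with transcript length, 0.19 with GC content, -0.14 with the number of near-identical genes and 0.12 with the number of small nucleolar RNA genes inside the gene. Over 11852 other protein-coding genes the correlation with GC content was 0.36 for the same comparison and 0.17 for resection over sham; its part in the members' changes was not tested. The 12 members lower without overlap had a median GC content of 51.1%, the 8 higher ones also 51.1%, and the 64 with overlap 51.8%. Small nucleolar RNA genes lay inside 6 of the 8 higher members, 5 of the 12 lower ones and 19 of the other 64. Of the 25 members with the pyrimidine run shown above, 18 had a positive and 7 a negative change, with a median of 0.33; of the 36 without it, 17 were positive and 19 negative, with a median of -0.10. Both kinds were found among the called members, with Rpl22l1, Rpl38 and Rpl39 carrying the run among those that fell and Rplp2 among those that rose.

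Against sham surgery, resection with vagotomy gave 9 called members, 4 higher and 5 lower (10.7%), against 10.1% of all genes tested, 5.81% higher and 4.26% lower. The 8 members above were all among them and Rpl12 was the ninth, at -1.34 ± 0.36 (SE; limma adjusted p = 0.043), with sham libraries at 296, 195 and 326 FPKM. Rpl22l1 was again the lowest at -2.82 ± 0.60 and Rpl41 the highest at 2.36 ± 0.50 (SE). Libraries did not overlap for 37 members (44.0%), 18 higher and 19 lower, against 36.7% of all genes tested, 19.7% higher and 17% lower. These comparisons share the vagotomy libraries. The count was 2 (2.38%) without any 1 vagotomy library, against 4.02% to 4.83% of all genes tested in those fits. It was 16 (19%) without the first resection library, against 12.8%, and 11 (13.1%) without resection library 2 or 3, against 11% and 8.21%. Without sham libraries 1, 2 and 3 it was 5, 1 and 0, against 8.92%, 0.755% and 0.898% of all genes. Fitting only the 6 vagotomy and sham libraries gave 17 members (20.2%), against 11.1% of all genes tested. For a difference among the 3 groups limma's F-test called 8 members, against 5.89% of all genes tested.

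Genes that act with ribosomal proteins were taken from lists chosen with earlier results of these data known. Ribosomal proteins outside the naming rule, among them Fau, Gnb2l1 and Rpl36al, were not called after vagotomy over resection. Rpl36al, a copy of Rpl36a, had 15.5, 4.80 and 6.24 FPKM after resection with vagotomy, against 46.9, 33.3 and 14.97 FPKM after resection (log2 change -1.75; limma adjusted p = 0.072). A list of 17 genes was written for messages that are also known for a pyrimidine run. It holds translation factors and also Tpt1, Naca, Btf3 and Nap1l1, and the start sites of the 17 were not examined here. Of these genes 1 rose after vagotomy over resection and 0 fell, against 1.97% and 1.55% of all genes tested. With 17 genes, 1 call is too few to set apart from those shares. A positive change was found for 14 of the 17, against 51.8% of all genes, with a median of 0.44, beside 0.02 for all genes. In resection over sham 13 of the 17 were positive, against 48.6% of all genes, with a median of 0.24, beside -0.01 for all genes. The factor that rose was Eef1d, a subunit of the exchange factor for elongation factor 1, at 88.4, 133 and 222 FPKM after resection with vagotomy, against 49.4, 27.3 and 39.2 FPKM after resection (log2 change 1.85; limma adjusted p = 0.031). Against sham surgery 3 of 17 rose (Eef1d, Eef1b2 and Eif4b), against 5.81% of all genes tested.

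Among factors that build ribosomes, 38 biogenesis genes were tested. After vagotomy over resection limma called 0 of them, against 3.52% of all genes tested, and the median change was 0.12. An unadjusted limma p under 0.05 was found for 7 (18.4%), against 24.2% of all genes tested. Whether these values differ from those of the members was not tested. Against sham surgery 3 of them rose, against 5.81% of all genes tested: Npm1, the nucleolar histone chaperone, Nolc1 and Mrto4. Npm1 had 153, 316 and 739 FPKM after resection with vagotomy, against 46.5, 85.6 and 111 FPKM after sham surgery (log2 change 2.10; limma adjusted p = 0.038). None of the 12 RNA polymerase I genes was called in any of the 3 comparisons. Of 18 growth control genes, limma called 1 after vagotomy over resection (5.56%), against 3.52% of all genes tested. It was Rptor, the substrate-binding subunit of mTOR complex 1, which rose at 22.1, 12.2 and 18.8 FPKM, against 7.05, 5.30 and 7.90 FPKM after resection (log2 change 1.25, limma adjusted p = 0.039). Myc, a transcription factor that drives ribosome production, had 14.6, 9.38 and 3.09 FPKM after resection with vagotomy, 16.2, 7.67 and 10.1 FPKM after resection, and 4.71, 2.99 and 5.20 FPKM after sham surgery; it was not called in any comparison. Against sham surgery the stress genes Ddit4 and Cdkn1a, Rptor and the S6 kinase gene Rps6kb2 rose and Mycn fell. These were 5 of the 18 (27.8%), against 10.1% of all genes tested. Whether these shares differ was not tested. Of 7 genes that host small nucleolar RNAs, Gas5 and Snhg3 (28.6%) rose against sham surgery, against 5.81% of all genes tested, and 0 were called in the other 2 comparisons. With 7 genes, 2 calls are too few to set apart from that share.

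Markers of macrophages and neutrophils summed higher in both resected groups than after sham surgery. The 10 macrophage markers tested summed to 205 to 274 FPKM after resection with vagotomy, 160 to 302 FPKM after resection and 56.7 to 76.5 FPKM after sham surgery. Lyz2 alone had 104 to 145 FPKM after resection with vagotomy, 105 to 190 FPKM after resection and 18.8 to 40.4 FPKM after sham surgery. After resection over sham all 10 changes were positive, with log2 changes from 0.12 for Mrc1 to 3.07 for Cd14. After vagotomy over sham 9 of the 10 were positive, and Mrc1 had -0.18. Limma called 2 of 10 higher after resection over sham (Lyz2 and Cd14), 0 of 10 after vagotomy over resection and 5 of 10 higher after vagotomy over sham. Of all genes tested it called 0.294%, 3.52% and 10.1% in those comparisons, and these shares serve for the neutrophil and erythroid markers too. The 5 neutrophil markers summed to 106 to 300 FPKM after resection with vagotomy, 195 to 280 FPKM after resection and 17.9 to 40.9 FPKM after sham surgery, with 1 of 5 higher after resection over sham, 1 of 5 lower after vagotomy over resection and 3 of 5 higher after vagotomy over sham. The neutrophil gene that fell after vagotomy over resection was S100a8, with a log2 change of -1.94 (limma adjusted p = 0.034), whereas its partner S100a9 had a log2 change of 1.49 (limma adjusted p = 0.12), so the sum hides changes of opposite sign. Of 6 erythroid markers, 0 were called by limma between vagotomy and resection or between resection and sham, and Hba-a2 rose after vagotomy over sham. In that last comparison 3 of the 6 had a positive and 3 a negative change, with a median of -0.20. The part of these cells in the members' changes was not tested.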

How the data were processed

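Libraries were grouped by the surgery in the labels. The authors deposited FPKM with a pseudocount of 1 in a matrix of genes, which was subtracted, and Cuffdiff tables with FPKM means, p-values and q-values; per the submitters' processing notes TopHat2 2.0.9, Cufflinks 2.1.1 and Cuffdiff 2.1.1 were used with GRCm38. Genes averaging at least 1 FPKM were fitted as log2(FPKM + 1) over all 9 libraries with limma 3.58.1 (R 4.3.3, mean-variance trend), two-sided, with Benjamini-Hochberg adjustment over all tested genes; fold changes on this scale understate low genes. The procedure was tested on simulated data. No counts were used, so depth is unknown and no count test was run. GENCODE M21 gave gene positions, GC content and lengths, copies came from BLAST 2.17.0, and start sites from RefSeq GRCm38.p6. Members and lists were chosen with earlier results of these data known. Genes named in the text are the 5 highest by mean, those with the 5 smallest p and the 3 highest and 3 lowest changes per comparison, the paralogs with their parents, a set with known roles (Rplp0, Rplp1, Rplp2, Rpl5, Rpl11, Rpsa, Rps6, Rps19), members listed at 0 and, per related list, up to 3 with the smallest p; Rpl12, Rpl27a, Rpl21, Rpl29, Myc and Cdkn1a beyond these, like the subunit sums without Rpl41, were chosen after their values were seen. Replicate numbers of the titles were checked for pairing by the correlation of deviations from group means. It was 0.20, 0.14 and 0.12 for same-numbered vagotomy and resection libraries, and from -0.13 to -0.02 for those with different numbers. The labels name no litter or batch, and their descriptions number the third libraries of the 3 groups differently, so the third pair rests on the title alone. Pairing was therefore not settled. The main fits used group only, without a replicate block, and the fit with the block is given as an alternative.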

Additional observations from a re-analysis of the deposited data

How the results depend on the processing

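In both comparisons with vagotomy, directions did not reverse for any of the members followed (Rpl22l1, Rpl22, Rpl38, Rpl39, Rps14, Rps3a1, Rpl23, Rplp2, Rpl41 and Rpl12) under the alternatives run: other pseudocounts, filters, scalings and moderation, a replicate block, 6 libraries in place of 9, and each library left out. In resection over sham, where none was called, 8 of the 10 changed sign among these alternatives. Under the pseudocount, filter, scaling and moderation alternatives the numbers of called members stayed within 1.5 times. With the replicate block 14 members (16.7%) were called for vagotomy over resection, 21 (25%) for vagotomy over sham and 14 (16.7%) among the 3 groups, against 9.64%, 18.2% and 12.3% of all genes tested, and 0 for resection over sham. Same-numbered sham libraries correlated at -0.02 to 0.19 with vagotomy libraries and at 0.01 to 0.50 with resection libraries. For differently numbered libraries the ranges were -0.22 to 0.10 and -0.45 to 0.34. Whether libraries with the same number are paired was not settled by these values. Fitting only the 6 libraries compared gave 0 for vagotomy over resection and 17 for vagotomy over sham, against 0.219% and 11.1% of all genes tested. With 1 library left out at a time the count ranged from 0 to 8 for vagotomy over resection, from 0 to 16 for vagotomy over sham and from 0 to 14 among the 3 groups, and it was 0 throughout for resection over sham; the cause was not tested. The authors' Cuffdiff q-values gave 1 and 36 members for resection over sham and vagotomy over resection. Over 20 alternatives the vagotomy over resection call was lost in 4 for Rpl38, 8 for Rpl41 and Rps14, 9 for Rpl22l1, Rpl39, Rpl23 and Rps3a1 and 10 for Rplp2, with adjusted p between 0.0065 and 0.16. Without depth, the counting error of low members such as Rps3a3 is unknown. Of the 8 members called for vagotomy over resection, 7 were protein-coding with at most 8 near-identical genes, the median of the set. This restriction was chosen after seeing the data and read from the same fit, in which 3.52% of all genes tested were called. The number of members it keeps is not given here, so 7 is a count and not a rate.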

Other observations

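Genes for other multi-subunit complexes likewise moved in both directions after vagotomy. Of 75 mitochondrial ribosomal protein genes, 6 rose and 2 fell in resection with vagotomy over resection (10.7%, against 3.52% of all genes tested, 1.97% higher and 1.55% lower), and 0 were called by limma in resection over sham, where 1 had an unadjusted p under 0.05. Mrpl13 rose most clearly, at 81.6, 75.9 and 125 FPKM after resection with vagotomy, against 25.5, 15.2 and 28.4 FPKM after resection (log2 change 2.00; limma adjusted p = 0.017), and Mrps17 fell, at 14.4, 18.1 and 17.5 FPKM after resection with vagotomy, against 45.0, 74.9 and 42.5 FPKM after resection (log2 change -1.60; limma adjusted p = 0.031). Of 77 nuclear genes of oxidative phosphorylation, 3 rose and 4 fell (9.09%, against the same shares). Ndufb3, a subunit of complex I, had 193, 148 and 262 FPKM after resection with vagotomy, against 39.7, 32.4 and 36.5 FPKM after resection (log2 change 2.41; limma adjusted p = 0.0050). Ndufb2, another subunit of that complex, had 173, 166 and 57.2 FPKM after resection with vagotomy, against 1019, 584 and 332 FPKM after resection (log2 change -2.29; limma adjusted p = 0.041). Mrpl13, Mrps17, Ndufb3 and Ndufb2 were chosen after their values were seen.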
